A study of Mus musculus with 9 samples.

Results

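Chylomicrons are the lipoprotein particles in which the small intestine exports dietary fat. In the enterocyte, microsomal triglyceride transfer protein (Mttp) loads lipid onto apolipoprotein B (Apob), the scaffold of the particle, in the endoplasmic reticulum, and Tm6sf2 supports the lipidation. Sar1b, a small GTPase of the COPII coat, drives the export of the particle towards the Golgi, while Apoa1, Apoa4, Apoc2 and Apoc3 are smaller apolipoproteins carried on its surface. Loss of MTTP or SAR1B in humans causes inherited fat malabsorption. These 8 genes (Apoa1, Apoa4, Apob, Apoc2, Apoc3, Mttp, Tm6sf2 and Sar1b), chosen by symbol from the deposited count table of 21868 genes, are described here, and all 8 were among the 14668 genes that passed the filter on low counts.

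The RNA came from bulk sequencing of mouse (Mus musculus) jejunum from 3 groups of 3 libraries, namely mice given TPN, mice under starvation and mice given sham treatment, each for 24 h. TPN is the usual abbreviation of total parenteral nutrition, the infusion of nutrients into a vein. The sources used here do not give the strain, sex or age of the mice, what was infused or what the sham mice ate. Replicates are labelled biological, with no statement that each came from a separate mouse, so the p-values below cover only the spread of these libraries, part of which could be technical. Levels are given in CPM, counts scaled to the library size with TMM factors, a scale on which 1 read was worth 0.0798 to 0.119 CPM. Tests are edgeR's quasi-likelihood test on all 9 libraries, with p-values adjusted by the Benjamini-Hochberg method over the 14668 genes and a threshold of 0.05, and fold changes are log2 values ± SE.

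Apoa1, Apoc3 and Apoa4 lie side by side on chromosome 9. On GRCm38 (GENCODE M21), Apoa1 is at chr9:46228580-46230466 on the plus strand, Apoc3 at chr9:46232933-46235636 on the minus strand and Apoa4 at chr9:46240696-46243459 on the plus strand, with 2466 and 5059 bases between neighbours. Apob is at chr12:7977648-8016835 (plus strand). Apoc2 is at chr7:19671579-19677941 (minus strand), Mttp at chr3:138089854-138144968 (minus strand), Tm6sf2 at chr8:70072924-70080066 (plus strand) and Sar1b at chr11:51763687-51791925 (plus strand).

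The sequences just upstream of the 3 most abundant members, taken from RefSeq (GRCm38.p6), are shown because 2 of them, Apoa4 and Apob, had estimates of opposite sign in TPN against sham. Neither passed the test, and the TPN and sham libraries overlapped for Apoa4. Of the 8 members, 6 matched a RefSeq promoter window (250 bases before to 50 after the start). Capitals mark CAAAGNNCA, the core of a direct repeat bound by HNF4 factors, searched on both strands, and TATAAA, the TATA box, searched on the gene strand. No match overlapped another. Each window ends before whichever start, of RefSeq or of GENCODE, lies farther upstream. The windows are on the plus strand at chr9:46228380-46228579, chr9:46240594-46240695 and chr12:7977427-7977647.
Apoa1: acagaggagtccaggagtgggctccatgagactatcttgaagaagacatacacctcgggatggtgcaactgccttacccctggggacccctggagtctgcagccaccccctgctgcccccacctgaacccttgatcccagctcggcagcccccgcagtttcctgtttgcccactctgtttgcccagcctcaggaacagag
Apoa4: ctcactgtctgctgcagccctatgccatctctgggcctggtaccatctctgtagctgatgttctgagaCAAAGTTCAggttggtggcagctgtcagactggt
Apob: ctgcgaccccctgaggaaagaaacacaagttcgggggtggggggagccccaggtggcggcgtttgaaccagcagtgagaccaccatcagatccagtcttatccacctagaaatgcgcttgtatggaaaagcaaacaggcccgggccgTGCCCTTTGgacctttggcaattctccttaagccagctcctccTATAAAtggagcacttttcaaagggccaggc

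CAAAGNNCA was present in the windows of Apoa4 and Apob, 2 of the 6 matched, against 6.36% of 32851 RefSeq promoter windows of the same length. In Apob it was read on the opposite strand, as TGCCCTTTG. TATAAA was present in Apob alone of the 6, against 8.32% of all windows. AGGTCA, a core element bound by nuclear receptors and searched on both strands, was present in Apoc2 alone, against 16.3% of all windows. These matches describe letters in the windows and are not measured binding sites.

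Libraries stood apart within 2 of the groups by villus tip, stem cell or smooth muscle markers, and most members were high in them. In starvation replicate 3, markers of the villus tip, where mature enterocytes are shed, averaged 9.30 log2 CPM over the 6 genes, against 6.77 and 7.34 in the other starvation libraries, 6.45 to 7.01 in TPN libraries and 7.25 to 8.51 in sham libraries. Their summed level was 702 to 1103 CPM in TPN, 963 to 6766 CPM in starvation and 1309 to 3015 CPM in sham, and no marker of the list was at 0. Ada and Slc28a2, both tip markers, were at 891 and 2585 CPM in starvation replicate 3. The 10 stem cell markers averaged 3.24 log2 CPM there, against 4.53 to 5.07 in the other 8 libraries. Sham replicate 2 had the highest mean of the 10 smooth muscle markers, 9.18 log2 CPM, and the remaining 8 libraries lay between 4.33 and 6.24. It also had the highest villus tip mean of the sham libraries (8.51, against 7.53 and 7.25), with Ada at 425 CPM, against 239 and 167 CPM. Its stem cell marker mean was the lowest in sham (4.53 log2 CPM, against 5.07 and 4.96), but the list was mixed. Most of these markers were lowest there in sham, Lgr5 among them (3.84 CPM, against 14.9 and 13.3 CPM). Smoc2 (137 CPM) and Tnfrsf19 (14.7 CPM) were at their highest sham level there. Apoa1, Apoa4, Apob, Apoc2, Apoc3 and Sar1b were at their highest sham level in that library. Mttp was level there (2108 CPM, against 2047 and 2141 CPM) and Tm6sf2 was lowest (141 CPM, against 161 and 165 CPM).

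Of the 8 members, 6 had their highest level in starvation replicate 3, as had 23.9% of the 14668 genes, and Apoc2 and Apoc3 were highest in sham replicate 2. Starvation replicate 3 exceeded the mean of the other starvation libraries by 1.73 times (Tm6sf2) to 4.49 times (Apoc3). In bulk samples, fewer enterocytes and less RNA per enterocyte cannot be told apart. The fold changes and calls of the members are therefore also given without these 2 libraries together, while ratios, marker-relative differences and levels per kilobase use all 9 libraries. Hepatocytes make the same apolipoproteins, and Alb, their defining transcript, had 0 to 4 reads per library. Other liver markers had at most 38 reads, apart from Cps1, which enterocytes also express, with 667 to 3542 reads. Acinar markers, from pancreas, were high in TPN replicates 1 and 2, starvation replicate 1 and sham replicate 1, with a summed 287 to 15446 CPM there and 16.6 to 23.6 CPM elsewhere. The part of smooth muscle, acinar and villus content in the results was not tested beyond the values given here.

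**Figure D1:**
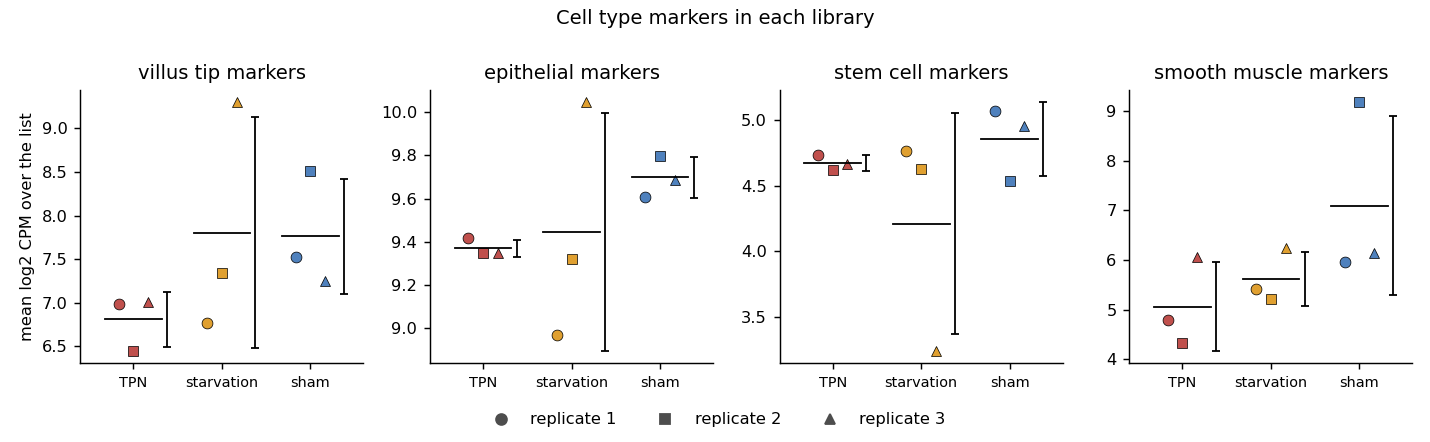
Mean log2 CPM of 4 cell type marker lists in each library (y axis), by group (x axis), with points for libraries, a line for the group mean and a bar for ± SD (n = 3). Starvation replicate 3 is highest for villus tip markers (9.30) and lowest for stem cell markers (3.24), and sham replicate 2 is highest for smooth muscle markers (9.18).

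Under TPN, 2 genes of particle assembly and export were lower than in sham, while Apob itself was not. Tm6sf2 fell, with a log2 fold change of -0.87 ± 0.22 (adjusted p = 0.0422), and so did Sar1b, at -1.13 ± 0.29 (adjusted p = 0.0447). That is 2 of 8 members lower and 0 higher, where 5.12% of all genes tested were called lower, 3.48% higher and 8.6% in either direction. Apob averaged 11004 ± 755 CPM in TPN and 6794 ± 1770 CPM in sham (SD, n = 3 each) and did not pass. The members' median log2 fold change was -0.80, against -0.02 for all genes tested. Medians of the villus tip (-1.33, 6 genes), epithelial (-0.38, 12 genes), smooth muscle (-2.67), cycling cell (-0.35), stem cell (-0.25) and macrophage (-0.18) markers lay on the same side. Those of villus bottom (0.35), plasma cell (0.13), hepatocyte (0.48, 2 genes tested) and pancreatic acinar (2.10) markers lay on the other. No villus tip or epithelial marker passed. The tip markers Ada, Nt5e, Klf4 and Enpp3 were lower in every TPN library than in any sham library. Egfr (27.4 to 31.0 CPM in TPN, 17.5 to 36.5 CPM in sham) and Slc28a2 (250 to 455 CPM, 289 to 806 CPM) overlapped. The epithelial markers were mixed. Vil1 (-0.87, adjusted p = 0.0659), Ezr (-1.11, adjusted p = 0.0694), Cdh17, Krt8, Krt20, Myo1a and Cldn7 were lower in every TPN library than in any sham library. Cdh1 (710 to 748 CPM in TPN, 559 to 675 CPM in sham) and Lgals4 (1151 to 1340 CPM, 977 to 1124 CPM) were higher in every one. Epcam, Krt18 and Krt19 overlapped. Of the calls over all genes, 59.6% were lower in TPN, a share that was 48.6% with upper quartile scaling, 46.8% with library totals and 39.9% with scaling to epithelial markers. The direction of Tm6sf2, Sar1b, Mttp, Apob, Apoc2 and Apoc3 was the same under each of these scalings.

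Tm6sf2, a membrane protein needed for normal lipidation of Apob particles in mouse and human liver, had 91.1, 83.4 and 81.04 CPM in TPN replicates 1 to 3, against 161, 141 and 165 CPM in sham replicates 1 to 3. All 3 TPN libraries lay below all 3 sham libraries. Sar1b had 121, 105 and 115 CPM in TPN, against 225, 306 and 217 CPM in sham. Again the groups did not overlap, and sham replicate 2 was the highest. Both calls were close to the threshold. Leaving out any sham library, any TPN library or starvation replicate 2 ended them (7 of 9 single omissions), with Tm6sf2 estimates of -0.82 to -0.94 and adjusted p up to 0.151, and Sar1b estimates of -0.96 to -1.22 and adjusted p up to 0.160. A term for smooth muscle content also ended both (adjusted p = 0.147 for Tm6sf2 and 0.271 for Sar1b), as did RLE factors (0.0535 and 0.0534 in the same order), and scaling to epithelial markers ended that of Tm6sf2 (0.0901).

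Mttp, the lipid transfer protein itself, was at 1349, 1199 and 1263 CPM in TPN, against 2047, 2108 and 2141 CPM in sham. The 2 groups did not overlap, and the estimate of -0.72 ± 0.24 did not pass in the fit that pools the spread over all 9 libraries (adjusted p = 0.0937). It passed in 5 of 22 alternative settings. These included DESeq2 (adjusted p = 0.0294) and the fit of the TPN and sham libraries alone (adjusted p = 0.00420). Over the 22 settings the estimate ran from -0.77 to -0.40, with adjusted p up to 0.352. In 8 of 9 single omissions Mttp did not pass. Part of the Mttp gene overlaps Trmt10a on the other strand. No strand-marking step is named in the labels, but Trmt10a had only 0.81 to 6.46 CPM.

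Apob had 11858, 10425 and 10728 CPM in TPN, against 5402, 8786 and 6194 CPM in sham. Every TPN library was above every sham library, with an estimate of 0.70 ± 0.37 that did not pass (adjusted p = 0.265). Apoa1, the main protein of HDL, had 12649, 10382 and 11290 CPM in TPN, against 8998, 18292 and 10459 CPM in sham. These groups overlapped, and the difference of -0.14 (95% interval -1.14 to 0.87, adjusted p = 0.874) changed sign with library totals as the scale (0.07), with scaling to epithelial markers (0.21) and without sham replicate 2 (0.23).

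Apoa4, the most abundant member, had 21889, 17929 and 22402 CPM in TPN, against 22313, 54394 and 25870 CPM in sham. Sham replicate 2 set the sham mean, and the ranges overlapped by a small margin. The estimate was -0.72 with a 95% interval of -1.99 to 0.55 (adjusted p = 0.444).

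The C apolipoproteins regulate the clearance of triglyceride from circulating particles: apoC-II activates lipoprotein lipase and apoC-III inhibits it. Apoc2 had 133, 115 and 151 CPM in TPN, against 223, 494 and 299 CPM in sham. Apoc3 had 139, 133 and 166 CPM in TPN, against 215, 612 and 267 CPM in sham. Both were lower in every TPN library than in any sham library, but neither passed, at -1.35 ± 0.55 (adjusted p = 0.152) for Apoc2 and -1.32 ± 0.62 (adjusted p = 0.207) for Apoc3. Reads at Apoc2 cannot be assigned to it alone. The overlapping gene Gm44805, on the same strand, had the same count in each library to within 0 to 5 reads, and the neighbouring Apoc4, which Gm44805 also covers, had 0 to 6 reads.

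In all, 6 of the 8 members did not overlap between TPN and sham, as did 42.7% of all genes tested. Without sham replicate 2 and starvation replicate 3, standard errors were smaller and 6 members passed, 1 higher and 5 lower, where 29.8% of 14855 genes did (15% higher and 14.8% lower). Apob rose by 0.97 ± 0.15 (adjusted p = 0.00164) in that fit. Mttp was at -0.68 (adjusted p = 4.88e-04), Tm6sf2 at -0.89 (2.74e-04), Sar1b at -0.92 (7.54e-04), Apoc2 at -0.93 (0.0104) and Apoc3 at -0.68 (0.0422). Apoa1 (0.27, adjusted p = 0.114) and Apoa4 (-0.17, adjusted p = 0.490) did not pass. With a term for villus tip content, Apob was at 1.25 (adjusted p = 0.00200), Sar1b at -0.69 (0.00442), Tm6sf2 at -0.65 (0.0362) and Apoa1 at 0.58 (0.0300), and these 4 members passed, where 14.7% of all genes did.

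**Figure D2:**
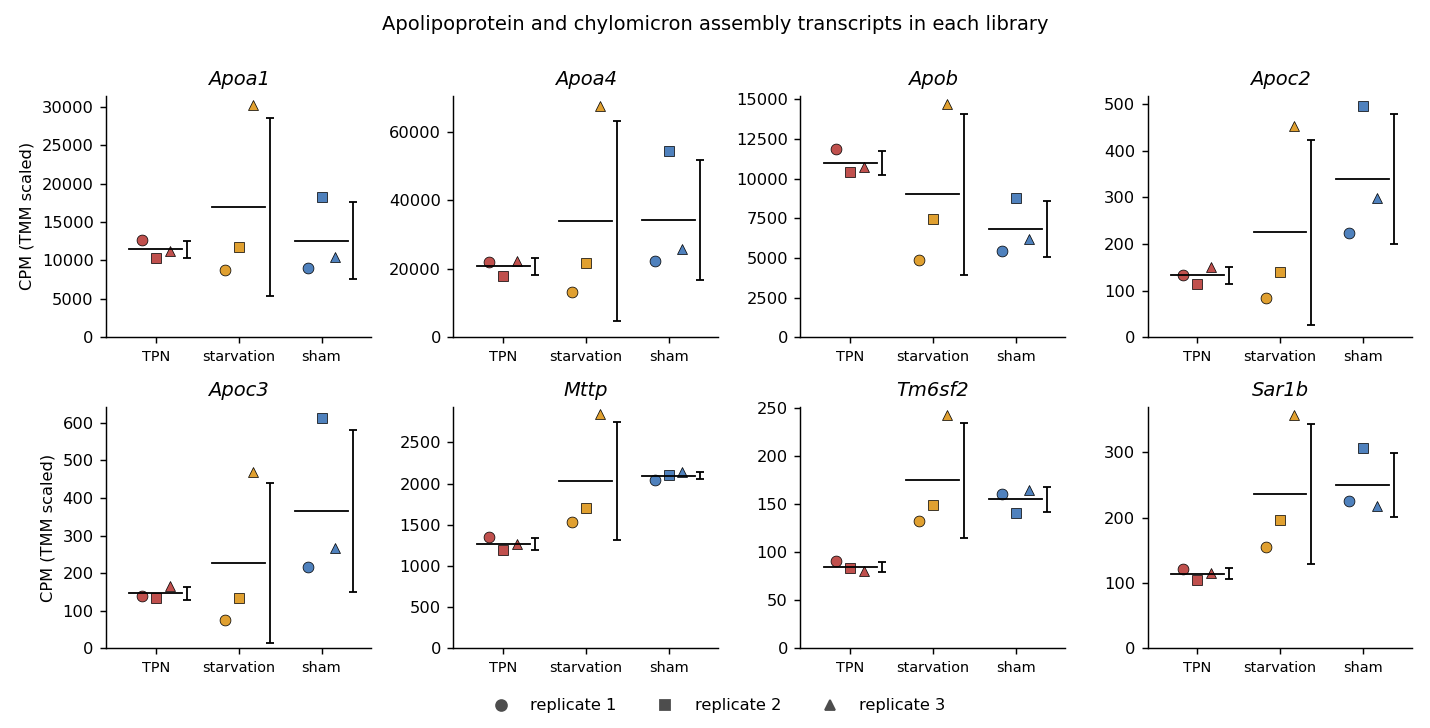
CPM of each of the 8 genes in each library (y axis, linear, a separate scale per gene) by group (x axis), with points for libraries, a line for the group mean and a bar for ± SD (n = 3). TPN libraries lie below all sham libraries for Apoc2, Apoc3, Mttp, Tm6sf2 and Sar1b and above them for Apob, and starvation replicate 3 is far above the other starvation libraries throughout.

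Starvation gave no call among the members. None of the 8 passed against sham, where 3.69% of all genes did, none had an unadjusted p under 0.05, where 3430 genes did, and DESeq2 called 0. No member was free of overlap between the groups, against 25.1% of all genes. Of the calls over all genes, 30.9% were lower in starvation, and 7.01% with scaling to epithelial markers. Adjusted p-values ran from 0.526 to 0.998. The intervals were wide, so changes of 2-fold in either direction were within reach for Apoa4 (95% interval -1.27 to 1.26 on the log2 scale). The narrowest were those of Tm6sf2 (-0.32 to 0.66) and Mttp (-0.59 to 0.49).

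The spread came from single libraries. Apoa1 had 8804, 11738 and 30232 CPM in starvation replicates 1 to 3, and Apoa4 had 13077, 21699 and 67506 CPM. Apob had 4874, 7477 and 14692 CPM. In each of these 3 genes starvation replicate 1 lay below every sham library and replicate 3 above every one. Apoc2 had 84.8, 139 and 452 CPM, and Apoc3 had 75.4, 134 and 470 CPM, with replicates 1 and 2 below all sham libraries and replicate 3 below sham replicate 2 only. The machinery genes spread less. Mttp had 1534, 1707 and 2850 CPM, Tm6sf2 had 133, 149 and 244 CPM, and Sar1b had 155, 196 and 357 CPM.

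Without sham replicate 2 and starvation replicate 3, 3 members fell in starvation, where 19.9% of genes passed and 9% were lower. They were Apoc2 (-1.22 ± 0.24, adjusted p = 0.00908), Apoc3 (-1.20 ± 0.24, adjusted p = 0.0108) and Mttp (-0.37 ± 0.09, adjusted p = 0.0244). The same 3 genes passed when starvation replicate 3 alone was left out, with Apoc2 at -1.62, Apoc3 at -1.82 and Mttp at -0.40, where 11.6% of genes passed. With a term for villus tip content, Apoc2 (-0.93, adjusted p = 0.0124) and Apoc3 (-1.02, adjusted p = 0.0119) passed, as did 16.1% of all genes. Apob, at 0.41 with all libraries, was at 0.093 without the 2 libraries and did not pass in either fit.

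Set against starvation, 1 member fell in TPN, namely Tm6sf2 at -1.04 ± 0.22 (adjusted p = 0.0280), the only call among the 8, where 5.84% of all genes were called and 3.9% were lower. Of those calls 66.7% were lower in TPN, and 83.0% with scaling to epithelial markers. Sar1b (-1.05 ± 0.29, adjusted p = 0.0681) and Mttp (-0.68 ± 0.24, adjusted p = 0.135) did not pass. For these 3 genes each TPN library was below each starvation library, and 33.6% of all genes were free of overlap. Apob, at 0.29 ± 0.37, did not pass (adjusted p = 0.690). The Tm6sf2 call ended without sham replicate 1, sham replicate 3 or any TPN library (adjusted p 0.0503 to 0.130) and in the fit of TPN and starvation libraries alone (adjusted p = 0.0740).

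Without sham replicate 2 and starvation replicate 3, Apob was higher in TPN than in starvation (0.87, adjusted p = 0.00410) while Tm6sf2 (-0.69, 0.00176), Sar1b (-0.58, 0.0101) and Mttp (-0.31, 0.0285) were lower. These 4 of 8 compare with 21.6% of genes called. Each group enters 2 of the 3 comparisons, so the comparisons are not independent of each other.

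**Figure D3:**
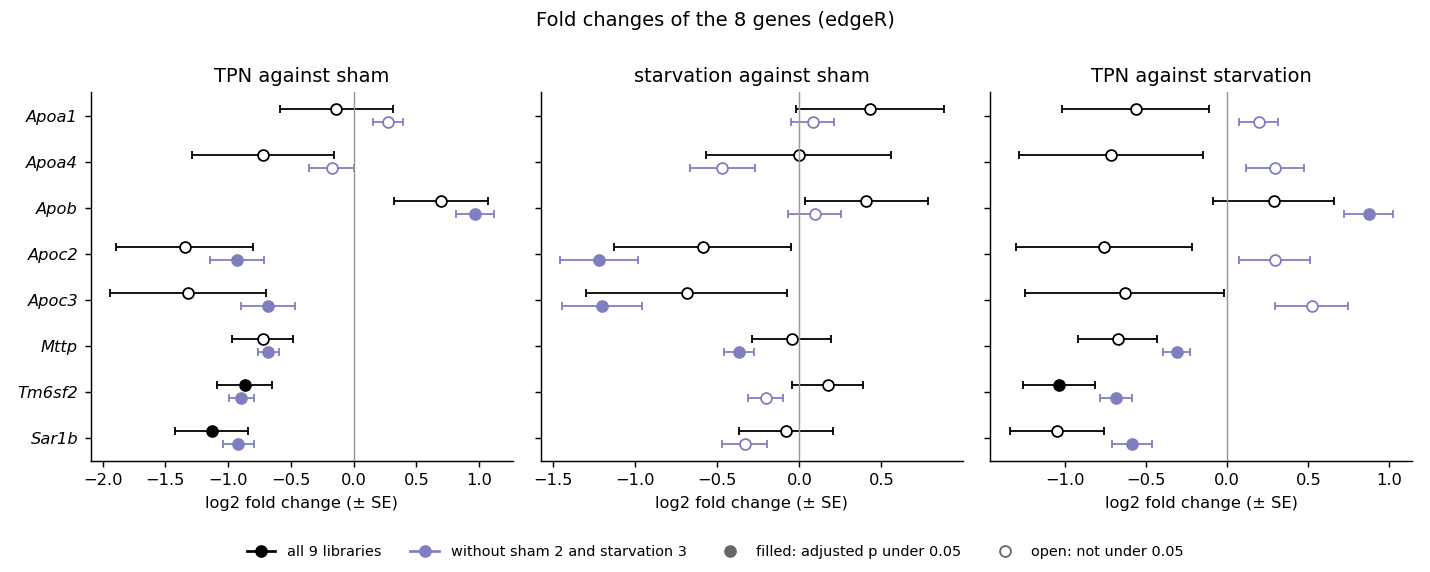
Log2 fold change ± SE of each gene (x axis) in the 3 comparisons, from all 9 libraries (black) and without sham replicate 2 and starvation replicate 3 (violet), with filled points for an adjusted p under 0.05. In TPN against sham, Tm6sf2 (-0.87) and Sar1b (-1.13) are filled with all libraries, and Apob is at 0.70, to the right of the line.

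Ratios of 2 members within a library do not depend on the scaling of libraries. The 8 ratios were chosen after the values had been seen, and an exact permutation test of 3 against 3 libraries cannot give less than 0.1 (two-sided). The ratio of Apob to Mttp counts was 8.79, 8.69 and 8.49 in TPN replicates 1 to 3, against 2.64, 4.17 and 2.89 in sham. It was 3.18, 4.38 and 5.15 in starvation. TPN libraries were above all the rest, with an exact p of 0.1 against each group (0.16 after Benjamini-Hochberg adjustment over 24 tests), while starvation and sham overlapped (exact p = 0.2).

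The ratio of Sar1b to Apob counts was 0.0102, 0.0100 and 0.0108 in TPN, 0.0318, 0.0262 and 0.0243 in starvation and 0.0417, 0.0348 and 0.0351 in sham. The 3 groups were in separate ranges, TPN lowest. Starvation replicate 3, with its high villus content, had the lowest starvation value of this ratio and the highest of Apob to Mttp. The part of villus content in the ratios was not tested.

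Of the ratios among surface apolipoproteins, Apoa1 to Apoa4 stood at 0.578, 0.579 and 0.504 in TPN and 0.673, 0.541 and 0.448 in starvation, against 0.403, 0.336 and 0.404 in sham. Apoc3 to Apoa4 stood at 0.00636, 0.00743 and 0.00740 in TPN and 0.00577, 0.00618 and 0.00696 in starvation, against 0.00965, 0.0113 and 0.0103 in sham. In both ratios TPN and starvation overlapped each other and neither overlapped sham (exact p = 0.1 against sham, the smallest possible, and 0.16 adjusted). Starvation replicate 3 had the highest starvation value of Apoc3 to Apoa4 and the lowest of Apoa1 to Apoa4. The same sham libraries serve both comparisons. The other ratios were mixed. Apoa1 to Mttp overlapped in all 3 comparisons (exact p = 0.2 for TPN against sham and 0.4 in the others). Apob to Apoa4 was higher and Tm6sf2 to Apob lower in TPN than in either group, without overlap. In starvation against sham both overlapped (exact p = 0.3 and 0.8). Apoc2 to Apoa4 was below sham in TPN and in starvation without overlap, and TPN and starvation overlapped (exact p = 0.7).

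**Figure D4:**
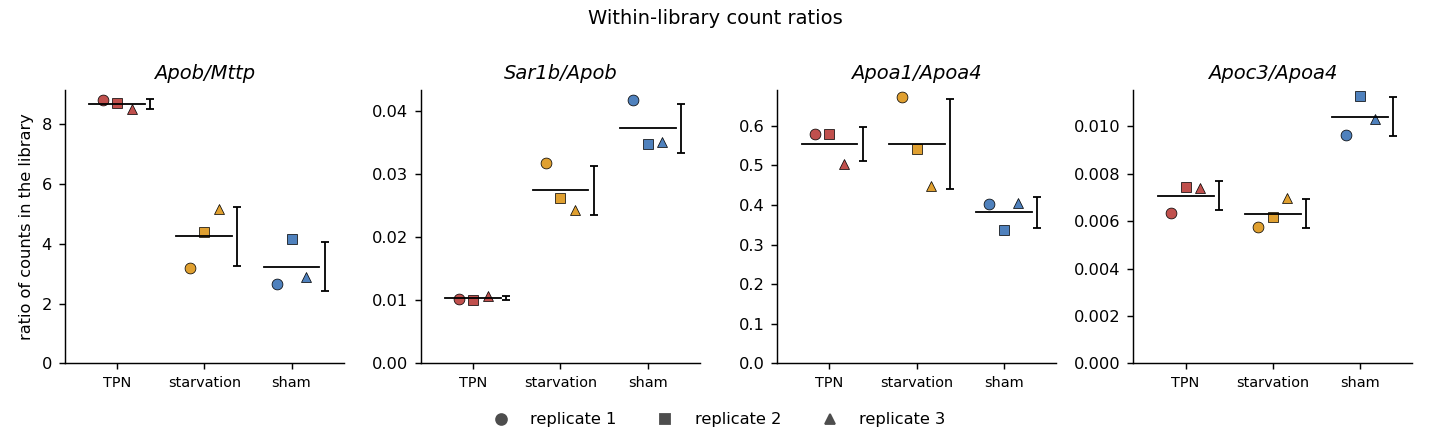
Ratio of the raw counts of 2 genes within each library (y axis, from 0) by group (x axis), with points for libraries, a line for the group mean and a bar for ± SD (n = 3). Apob/Mttp is 8.49 to 8.79 in TPN against at most 5.15 elsewhere, and Apoc3/Apoa4 is at least 0.00965 in sham and at most 0.00743 in the other groups.

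Set against the mean log2 level of 12 epithelial markers in the same library, the members outside Apoa1 and Apoa4 were again apart between TPN and sham. Epithelial markers averaged 9.35 to 9.41 log2 CPM in TPN, 8.97 to 10.05 in starvation and 9.61 to 9.80 in sham. Relative to them, Apob was 1.05 higher in TPN than in sham, and Mttp was lower by 0.40, Tm6sf2 by 0.53 and Sar1b by 0.79, all without overlap between groups. Apoc2 and Apoc3 were also lower without overlap. In starvation, Mttp stood 0.15 and Tm6sf2 0.38 above sham on this measure, without overlap, and no other member was free of overlap. Set instead against the mean of the 6 villus tip markers, the picture of TPN against sham was different for the machinery genes. Mttp differed by 0.22, Tm6sf2 by 0.08 and Sar1b by -0.17, and TPN and sham overlapped for all 3. Apob was 1.67 higher in TPN on that measure, without overlap. Apoa1 (0.88) and Apoa4 (0.34) were also above sham without overlap, and Apoc2 (-0.33) and Apoc3 (-0.22) overlapped. In starvation, Apoc2 (-0.92) and Apoc3 were below sham without overlap. These are log2 differences, with no test. The share of all genes free of overlap was not computed on either measure, so the separations cannot be set against it.

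Per kilobase of exon, the scale on which genes can be compared with each other, Apoa4 was the most abundant at 11427 ± 1349 CPM per kb in TPN, 18784 ± 16118 in starvation and 18839 ± 9689 in sham (SD, n = 3). Apoa1 followed at 9256 ± 923 in TPN, 13693 ± 9399 in starvation and 10180 ± 4044 in sham, and the ranges of these 2 genes overlapped in every group. Apob came next, at 790 ± 54.2 CPM per kb in TPN, 647 ± 365 in starvation and 488 ± 127 in sham. In TPN the order below Apob was Mttp (205 ± 12.1), Apoc2 (164 ± 22.4), Apoc3 (144 ± 17.1), Sar1b (90.7 ± 6.78) and Tm6sf2 (44.8 ± 2.78), and only Apoc2 and Apoc3 overlapped. In sham it was Apoc2 (417 ± 172), Apoc3 (360 ± 213), Mttp (338 ± 7.69), Sar1b (199 ± 38.9) and Tm6sf2 (81.8 ± 6.87). There the neighbours from Apob down to Mttp overlapped in range, and Sar1b and Tm6sf2 lay apart from the neighbours above them. In starvation the order was Mttp (327 ± 115), Apoc2 (277 ± 244), Apoc3 (223 ± 210), Sar1b (188 ± 84.9) and Tm6sf2 (92.1 ± 31.5), and every pair of neighbours from Apob down overlapped. The 8 genes together took 4.35% to 5.16% of all counts in TPN, 3.27% to 8.91% in starvation and 3.89% to 7.51% in sham.

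The other genes of the pathway, 76 in 6 lists, were counted in the same fits. The lists were drawn up with earlier results of these data known, and their counts are not independent evidence. Among 11 genes of lipid transfer and particle assembly, 2 fell in TPN against sham and 0 rose, where 5.12% of all genes were lower and 3.48% higher. The list's median was -0.47, against -0.02 for all genes. P4hb, the protein disulphide isomerase that forms the Mttp complex, averaged 1373 ± 63.6 CPM in TPN and 3247 ± 184 CPM in sham (-1.24 ± 0.22, adjusted p = 0.0120). Surf4, a cargo receptor for lipoprotein export, averaged 525 ± 18.6 CPM in TPN and 997 ± 42.1 CPM in sham (-0.93 ± 0.23, adjusted p = 0.0379). In starvation against sham the 1 call of all 6 lists was Plin2, a lipid droplet coat protein (-0.59 ± 0.12, adjusted p = 0.0323), where 3.69% of all genes were called. P4hb also fell in TPN against starvation (-1.19, adjusted p = 0.0167).

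Of 16 genes of the COPII coat and cargo export, 4 fell in TPN against sham, where 5.12% of all genes did, and 0 rose. The median was -0.47 over the list and -0.02 over all genes. Tfg, which organises export sites, was at -0.80 (adjusted p = 0.00990), the coat subunit Sec13 at -1.02 (0.0311), Sec23b at -0.67 (0.0329) and Sec23a at -0.85 (0.0468). Sar1a, the paralog of Sar1b, averaged 98.9 ± 4.11 CPM in TPN and 132 ± 28.2 CPM in sham and did not pass (-0.42 ± 0.17, adjusted p = 0.150). The sources used here do not say how reads that match both paralogs were counted. Sec16a was the 1 gene of this list called lower in TPN than in starvation (-0.68, adjusted p = 0.0417), as were 3.9% of all genes.

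Of 14 genes of triglyceride resynthesis and fatty acid handling, 3 fell in TPN against sham, where 5.12% of all genes did, and 0 rose. The median was -0.71, against -0.02 for all genes. They were Fabp2, the intestinal fatty acid binding protein (-2.26 ± 0.46, adjusted p = 0.0202), the fatty acid transporter Slc27a4 (-1.72 ± 0.38, 0.0261) and the sterol transporter Npc1l1 (-1.44 ± 0.35, 0.0372). The acyltransferases Mogat2 (-0.59, adjusted p = 0.0964) and Dgat1 (-0.98, adjusted p = 0.0662) did not pass, nor did Fabp1 (0.40, adjusted p = 0.278). Against starvation, 4 fell in TPN, where 3.9% of all genes did. Dgat1 was at -1.56 (adjusted p = 0.0170), Fabp2 at -2.16 (0.0284), Slc27a4 at -1.75 (0.0296) and the cholesterol acyltransferase Soat2 at -1.44 (0.0226).

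Apob mRNA in intestine is edited by Apobec1, with helper proteins, to encode the short form of the protein. Apobec1 averaged 66.8 ± 9.78 CPM in TPN and 105 ± 17.6 CPM in sham and did not pass (-0.66 ± 0.24, adjusted p = 0.115). Its RNA-binding cofactor A1cf rose to 93.3 ± 11.8 CPM in TPN, against 55.8 ± 9.17 CPM in sham (0.74 ± 0.19, adjusted p = 0.0446). It was the 1 call among 4 genes, where 3.48% of all genes were called higher and 8.6% in either direction. Gene-level counts carry no measure of editing itself.

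Of 20 transcription factors known to act on apolipoprotein genes, 3 rose in TPN against sham, where 3.48% of all genes did, and 0 fell, where 5.12% did. The median was -0.10, against -0.02 for all genes. Ppara, a fatty acid sensor, averaged 84.9 ± 9.84 CPM in TPN and 23.2 ± 9.45 CPM in sham (1.87 ± 0.29, adjusted p = 0.00773). The bile acid receptor Nr1h4 was at 1.09 ± 0.23 (adjusted p = 0.0237) and Foxo1 at 0.45 ± 0.12 (adjusted p = 0.0427). Hnf4a, whose core motif was searched above, averaged 904 ± 19.4 CPM in TPN and 976 ± 34.3 CPM in sham (-0.11, adjusted p = 0.766). Creb3l3, a membrane-bound factor that acts on Apoa4, was at -0.10 (adjusted p = 0.898). No factor passed in the other comparisons, where 3.69% (starvation against sham) and 5.84% (TPN against starvation) of all genes did.

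Of 11 further apolipoproteins, 5 passed the filter on low counts and 0 were called in any comparison. Of all genes, 8.6% were called in TPN against sham, 3.69% in starvation against sham and 5.84% in TPN against starvation. Apoe, at 463 ± 39.3 CPM in TPN, 508 ± 151 CPM in starvation and 605 ± 109 CPM in sham, was the most abundant of them. Without sham replicate 2 and starvation replicate 3, TPN against sham had 6 of 11 lipid transfer genes, 9 of 16 COPII genes and 9 of 14 triglyceride genes lower and 0 higher, where 14.8% of all genes were lower. In that fit 4 of 20 transcription factors rose and 4 fell, beside 15% of all genes higher and 14.8% lower, 2 of the other apolipoproteins rose (Clu and Apod), and A1cf rose while 2 editing genes fell, Apobec1 (-0.48, adjusted p = 0.0265) and Rbm47 (-0.56, adjusted p = 0.00430). Clu, Apod, Rbm47, Apoh, Elf3, Cdx2 and Gata4 are named here after their values were seen. In starvation against sham without the 2 libraries, 5 lipid transfer, 4 COPII and 2 triglyceride genes were lower and 0 higher, where 9% of all genes were lower and 10.9% higher. Of the transcription factors, 2 were higher there (Foxo1 and Ppara) and 4 lower, namely Hnf4a (-0.59, adjusted p = 0.00577), Elf3 (-0.78, adjusted p = 0.00281), Cdx2 and Gata4. Of the other apolipoproteins, Clu and Apod were higher and Apoh lower, and no editing gene was called. In TPN against starvation without the 2 libraries, 11.5% of all genes were lower and 10.1% higher. There 1 lipid transfer gene was higher and 1 lower, 3 COPII and 7 triglyceride genes were lower and 0 higher, 5 transcription factors were higher and 1 lower, and 1 editing gene and 1 of the other apolipoproteins were higher.

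All of the pathway genes called with all libraries were also called, in the same direction, without the 2 libraries (13 of 13 in TPN against sham, 1 of 1 in starvation against sham and 6 of 6 in TPN against starvation). That fit reuses libraries of the main fit and called 29.8% of all genes in TPN against sham, against 8.6% in the main fit. The share of calls kept over all genes was not computed, so these counts are not independent support. In TPN against starvation, 3 estimates were smaller by more than 1.5 times in that fit, those of Fabp2 (-1.38), Slc27a4 (-1.06) and Soat2 (-0.94).

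**Figure D5:**
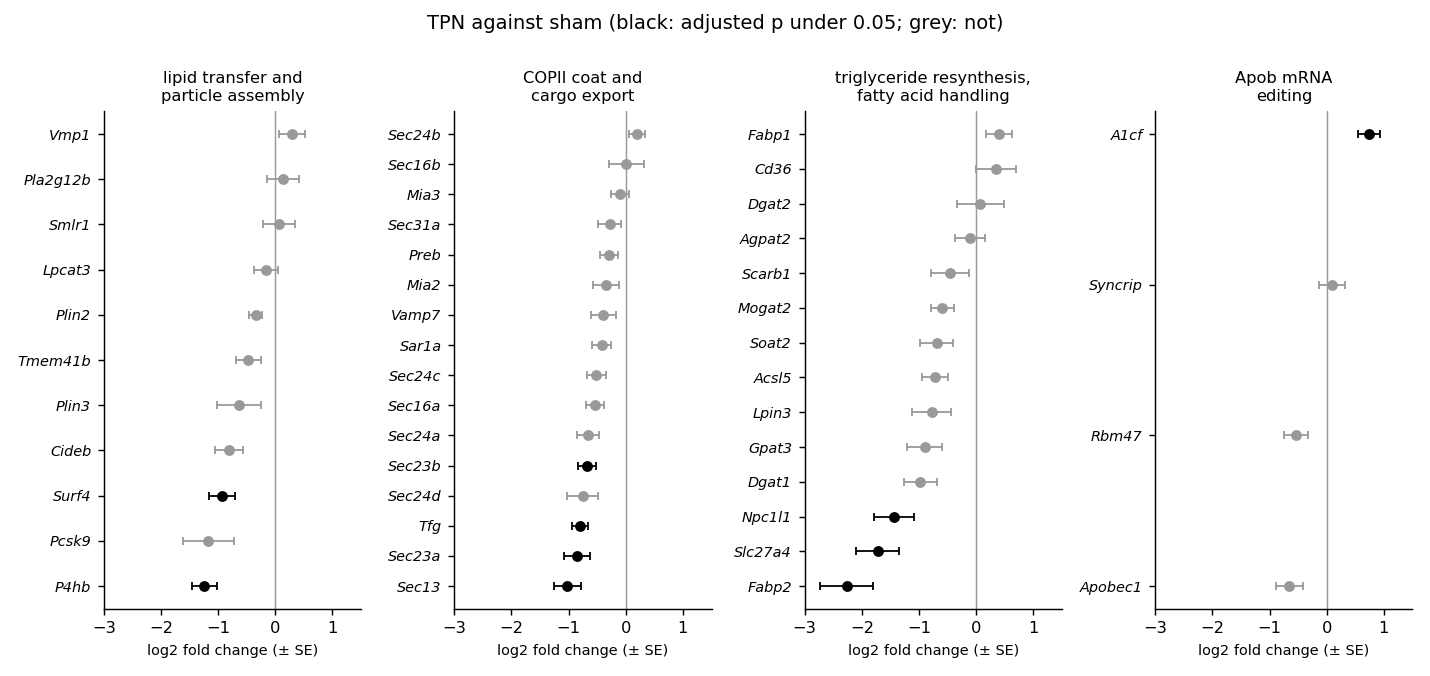
Log2 fold change ± SE (x axis) of the genes of 4 pathway lists in TPN against sham, all 9 libraries, each list ordered by its values, in black for an adjusted p under 0.05. Among COPII genes 4 of 16 are black and all 4 lie below 0, and A1cf is the 1 black point above 0.

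The likeness of other genes to each member was measured as the root mean square difference of log2 CPM profiles over the 9 libraries, each centred on its mean, among 10144 genes with a mean log2 CPM of at least 3. The closest members were Apoc2 and Apoc3 (0.154) and Mttp and Tm6sf2 (0.165). Outside the members, Mttp was nearest to Mapk3 (0.0509), Tapbp (0.0627) and Cyp2d26 (0.0751), and Tm6sf2 to Pkm (0.0662), Acbd4 (0.0681) and Usp37 (0.0699). Usp37 overlaps the epithelial marker Vil1 on the other strand, and with the strand setting not given its counts may include Vil1 reads. Sar1b was nearest to Arf5 (0.0966), H2-Q2 (0.0997) and Ezr (0.105), the last of them an epithelial marker.

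Apoa1 was nearest to Eps8l3 (0.118), Suco (0.123) and Ypel5 (0.125), and Apoa4 to Pgm2 (0.121), Anxa2 (0.147) and Cidec (0.156). Apob was nearest to Pisd (0.152), Fgd6 (0.170) and Dock4 (0.185). Apart from Gm44805, which shares its reads with Apoc2, Apoc2 was nearest to Ceacam18 (0.159) and Fam84a (0.216), and Apoc3 to Hbegf (0.248) and Ceacam18 (0.257). The same 9 libraries enter every distance, and they differ in villus content and in depth, so these distances are descriptions only.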

How the data were processed

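The authors deposited raw counts per gene symbol for 9 jejunal libraries. Per the submitters' processing notes, reads were handled with STAR 2.7.2e, cutadapt 2.9, FastQC 0.11.8 and featureCounts 2.0.0 on GRCm38 or mm10, and DESeq2 1.32.0 is also named. The sources used here do not give the strand setting or the handling of multi-mapping reads. Oligo(dT) selection and random hexamers were used, per the labels' protocols. A further 9 columns matched no labelled sample and were used in no step. Of 21868 symbols, 21689 matched a gene name of GENCODE M21, the source of positions and exon lengths.

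Total counts ran from 7779877 to 12084278 per library, and counts without molecular identifiers can include PCR copies. Replicates differed beyond sampling noise (chi-square per gene 7.74 to 118). Counts were tested with edgeR 4.0.16 in R 4.3.3 (filterByExpr, TMM, a mean per group over all 9 libraries with 6 residual degrees of freedom, quasi-likelihood contrasts, and the Benjamini-Hochberg adjusted p under 0.05). The filter removed 7200 genes. The SE is the log2 fold change divided by the square root of F. Intervals are at 95%. Log2 CPM used a prior count of 2. The scripts were tested on simulated data.

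The 8 members, the pathway lists and the 10 marker lists were chosen with earlier results of these data known. Named genes are the members, called genes of the pathway lists (at most 4 per list and comparison), a fixed set of pathway and marker genes, and the 3 genes most like each member. Alternatives were DESeq2 1.42.0, limma 3.58.1 voom, other scalings, filters (a minimum CPM of 1 in 3 libraries, or none), covariates, a replicate block and left-out libraries.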

Additional observations from a re-analysis of the deposited data

How the results depend on the processing

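Of 528 recomputed member results (8 genes, 3 comparisons, 22 settings each), 424 kept their direction and side of the threshold, 28 lost a call, 34 gained one and 42 changed sign. The 42 were not called in the main fits, and 1 of them passed in its alternative (Apoa1 with the villus tip covariate). Unless a sentence says otherwise, the cause was not tested. No member had fewer than 700 reads in a library.

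Calls over all genes and among the 8 members moved as follows. For RLE factors and library totals, some member counts stand without a gene count. Such a count is not set beside the share of all genes and is no result about the members. For TPN against sham (1261 genes and 2 members in the main fit), DESeq2 called 2421 genes, scaling to epithelial markers 659, RLE factors 0 members and library totals 4 members. The fit of only the groups compared called 2774 genes and 5 members, the villus tip covariate 2149 and 4, the smooth muscle covariate 448 and 0, and the omission of sham replicate 2 with starvation replicate 3 called 4425 and 6. For starvation against sham (541 and 0), library totals called 353 genes, DESeq2 1654, only the groups compared 2, the smooth muscle covariate 213, the villus tip covariate 2357 with 2 members, and the omission of both libraries 2949 with 3 members. For TPN against starvation (857 and 1), library totals called 2 members, scaling to epithelial markers 493 genes and 3 members, DESeq2 1791 and 2, only the groups compared 545 and 0, the villus tip covariate 1308 and 3, and the omission of both libraries 3205 and 4.

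With each library left out in turn, TPN against sham gave 216 to 3182 genes and 0 to 6 members, starvation against sham 32 to 1739 genes and 0 to 3 members, and TPN against starvation 124 to 1248 genes and 0 to 2 members. The most calls came without starvation replicate 3 in both comparisons against sham.

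The replicate numbers do not pair the libraries: same-numbered libraries had deviations from the group means correlated at -0.300 to 0.378, over 0.1 in 2 of 9 pairs, and 2 of 18 checks found the own number best. With the replicate block, 556 genes and 0 members were called in TPN against sham, 71 genes and 0 members in starvation against sham and 386 genes and 0 members in TPN against starvation.

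Scaling to epithelial markers moved the median of all genes by 0.33 in TPN against sham and 0.31 in starvation against sham, and library totals by 0.19 in TPN against sham and 0.14 in TPN against starvation. Relative to the median of all genes, Apob in TPN against sham was at 0.73 under both, Tm6sf2 at -0.85 under both and Sar1b at -1.10 under both.

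Sign changes in TPN against sham were those of Apoa1 with library totals (0.074), scaling to epithelial markers (0.21), the villus tip covariate (0.58), the smooth muscle covariate (0.65) and without both libraries (0.27), and of Apoa4 with the villus tip (0.24) and smooth muscle (0.34) covariates. In starvation against sham, Apoa4 changed sign with RLE factors (0.012), DESeq2 (0.012), scaling to epithelial markers (0.035) and the smooth muscle covariate (0.67). Mttp (0.15) and Sar1b (0.091) did so with scaling to epithelial markers, Apoc3 (0.087), Mttp (0.042) and Sar1b (0.20) with the smooth muscle covariate, and Tm6sf2 without both libraries (-0.21). In TPN against starvation, Apoa1, Apoa4, Apoc2 and Apoc3 changed sign with the villus tip covariate (0.33, 0.52, 0.46 and 0.78) and without both libraries (0.19, 0.29, 0.29 and 0.52).

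With single libraries left out, Apoa1 ranged from -0.33 to 0.23 in TPN against sham. In starvation against sham, Apoa1 ranged from -0.31 to 0.80, Apoa4 from -0.996 to 0.50, Apob from -0.16 to 0.71, Mttp from -0.40 to 0.12, Tm6sf2 from -0.17 to 0.34 and Sar1b from -0.53 to 0.15. In TPN against starvation, Apoa1 ranged from -0.88 to 0.21, Apoa4 from -1.10 to 0.31, Apob from -0.011 to 0.89, Apoc2 from -1.15 to 0.31 and Apoc3 from -1.05 to 0.53.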
